A study of Rattus norvegicus with 6 samples.

Results

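Myelin is rich in sphingolipids, and the 10 genes described here encode enzymes of their synthesis and a protein linked to its serine supply. They were chosen by name, and all 10 were found among the 17327 gene symbols counted. All 10 passed the filter on low counts that left 9740 genes for testing. The cells were primary Schwann cells, the glia of peripheral nerve, from sciatic nerves of adult female Wistar rats. In each of 3 independent cultures, confluent cells were starved for 18 h in medium with 2% serum and 10 µM forskolin, a compound that raises cAMP and brings back myelin gene expression in Schwann cells without axons. Treated cells (called NRG1 samples) then received soluble NRG1β1 at 10 nM over a period of 6 h, and mock cells received the buffer alone (PBS with albumin). Forskolin was thus present in both groups, and the medium used before starvation held a neuregulin in both groups as well. The cultures hold no neurons, so the cells had no axonal contact, and a change here is a change in cultured cells that do not form myelin sheaths.

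Sphingolipid synthesis starts in the endoplasmic reticulum, where serine palmitoyltransferase joins serine to a fatty acid, and ceramide synthases and a desaturase then build ceramide. Ceramide is the branch point. With a galactose head group it becomes galactosylceramide, which a sulfotransferase turns into sulfatide, and these galactolipids, many of them with a 2-hydroxylated fatty acid, are typical of myelin. With phosphocholine ceramide becomes sphingomyelin, and with glucose it becomes glucosylceramide, from which gangliosides are made. Schwann cells and oligodendrocytes raise the galactolipid branch strongly when they myelinate. Of the 10 genes, 9 encode enzymes or enzyme subunits, whereas Serinc5 encodes a membrane protein of the serine incorporator family, which has been linked to the supply of serine for lipid synthesis and is abundant in myelinating glia.

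The counts on genes ranged from 6821590 to 15475018 per library. Levels are given as CPM, the counts of a gene brought to a common library size with TMM scaling, and 3 counts, taken as the floor, corresponded to 0.194 to 0.444 CPM. Culture 1 stood apart from the others by its cell type markers. The summed level of 8 Schwann cell markers, among them Sox10, was 2910 to 3160 CPM in the samples of culture 1 and 5330 to 6970 CPM in those of cultures 2 and 3. S100b, Sox10, Ngfr, Erbb3, Egr2 and Mbp were each lower in culture 1. Gfap was highest there, with 91.5, 70.4 and 76.1 CPM in cultures 1, 2 and 3, and Cdh19 differed little, with 135, 157 and 150 CPM. For 7 fibroblast markers the sum was 53400 to 57700 CPM in culture 1 against 13700 to 22300 CPM in the other cultures, and for 5 markers of pericytes and smooth muscle it was 1910 to 1940 CPM against 5.51 to 12.4 CPM. In culture 1, Acta2 alone made up 1813 and 1845 CPM of the latter sum in the mock and NRG1 samples. Cspg4, Myh11 and Rgs5 were also higher there, averaging 40.6, 34.5 and 17.9 CPM. Des was not, with 0.401, 0.408 and 0.111 CPM in cultures 1, 2 and 3. Dcn and Thy1, made by fibroblasts, averaged 519 and 1210 CPM in culture 1 and had no count in cultures 2 and 3. Pdgfra averaged 849 CPM in culture 1 and 0.524 and 1.16 CPM in cultures 2 and 3. Fbln1 differed less, with 7.81, 4.18 and 6.58 CPM in cultures 1, 2 and 3. The fibroblast sum of cultures 2 and 3 was mostly Col1a1, at 17500 and 13700 CPM, so there the sum follows that gene. Macrophage markers summed to at most 10.3 CPM and endothelial markers to at most 15.2 CPM in every sample, with Ptprc, Cd163, Pecam1 and Cdh5 at 0 throughout. Between mock and NRG1 samples, 4 of the 8 Schwann cell markers fell and none rose, where 5.51% of all genes tested fell. Those that fell were S100b, Cdh19, Egr2 and Mbp. Sox10, Ngfr, Erbb3 and Gfap did not pass, with log2 fold changes of 0.11, 0.08, -0.21 and -0.40 (adjusted p from 0.128 to 0.737, edgeR). None of the 4 fibroblast, 3 pericyte and smooth muscle, 1 macrophage and 1 endothelial markers tested passed the test. Among these, Col3a1, a fibrillar collagen of fibroblasts, came closest, with a log2 fold change of -0.98 ± 0.25 (SE, n = 3 pairs; adjusted p = 0.0118, edgeR). Its log2 ratio was 0.05 in culture 1, -1.59 in culture 2 and -1.38 in culture 3, and the fibroblast sum of culture 2 was 22340 CPM in the mock and 13700 CPM in the NRG1 sample. Col1a1 made up 21490 CPM of the mock and 13410 CPM of the NRG1 sum. The falls of Col3a1 were thus seen in the cultures that had no count of Dcn, Lum and Thy1. Which cells expressed Col3a1, and their part in the results, was not tested. Each result below is therefore given with and without culture 1 where that culture changed it.

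Soluble NRG1 lowered 2 of the 10 genes, Fa2h and Serinc5, and raised none. Fa2h fell to 27.8% and Serinc5 to 40.7% of the mock level. Ugt8 was lower and Cers2 higher in every pair, but neither passed the test, and the other 6 genes differed by at most 0.14 on the log2 scale. The test was edgeR's quasi-likelihood test with the replicate number as a block, adjusted over all 9740 genes by the Benjamini-Hochberg method, and a gene passed where the adjusted p did not exceed 0.01. A gene was called down-regulated or up-regulated when its absolute log2 fold change was also over 1. Both Fa2h and Serinc5 met both thresholds. Of all genes tested, 11.8% passed, with 5.51% falling and 6.31% rising. The share past both thresholds was 1.91% for down-regulated and 1.56% for up-regulated genes. The median log2 fold change was -0.07 over the 10 genes and -0.03 over all genes tested. In a bulk culture, fewer cells that express a gene and less RNA of it per cell cannot be told apart.

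**Figure D1:**
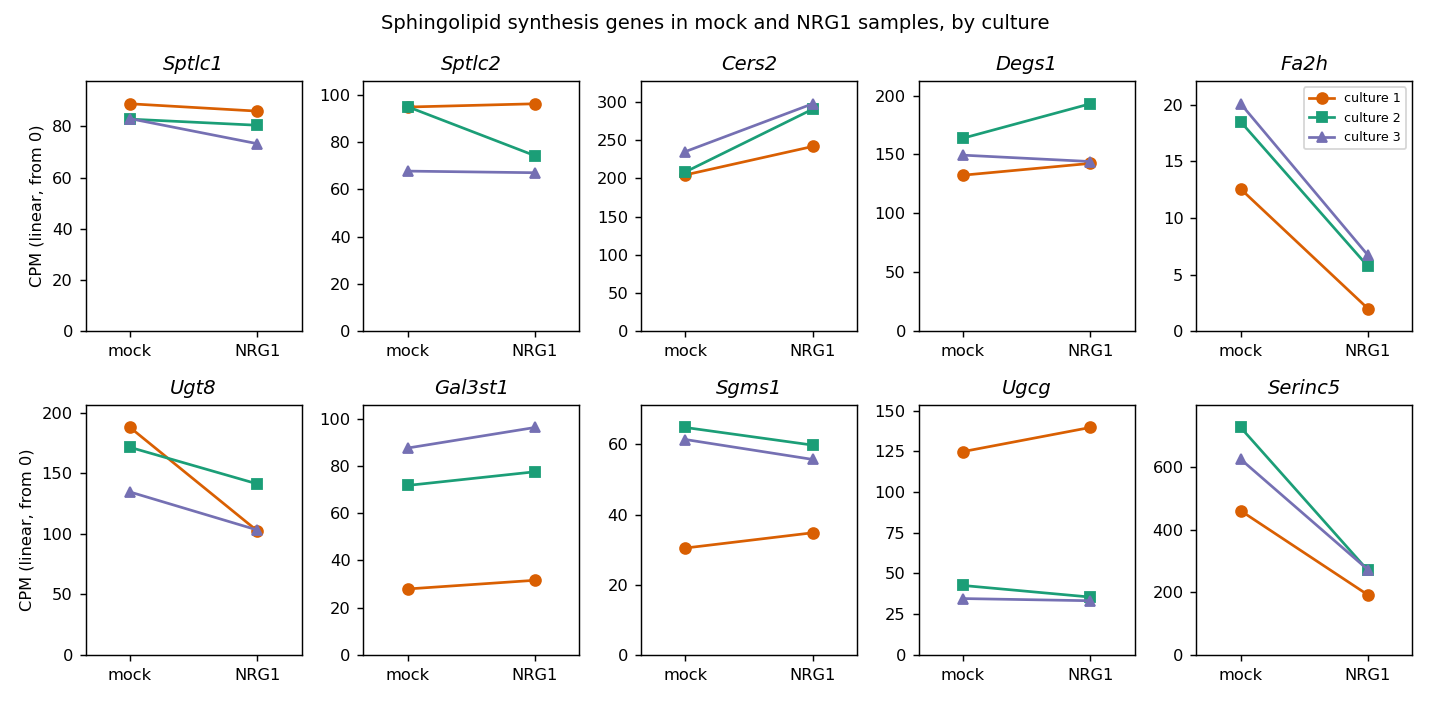
Levels of the 10 genes in CPM, on linear axes from 0, in the mock and NRG1 sample of each culture, with a line joining the samples of a culture. The 3 lines fall steeply for Fa2h and Serinc5, while Gal3st1, Sgms1 and Ugcg differ between culture 1 and the other cultures rather than between mock and NRG1.

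Fa2h encodes fatty acid 2-hydroxylase, the enzyme that makes the 2-hydroxy fatty acids of myelin galactolipids. Its level was 12.6, 18.5 and 20.1 CPM in mock samples 1, 2 and 3, and 2.0, 5.73 and 6.71 CPM in the NRG1 samples of the same numbers. The groups did not overlap, and the lowest mock sample lay well above the highest NRG1 sample. The log2 fold change was -1.85 ± 0.22 (SE, n = 3 pairs; adjusted p = 5.34e-05, edgeR). The pair of culture 1 showed the steepest fall, a log2 ratio of -2.65, but this ratio rests on only 15 counts in the NRG1 sample. The pairs of cultures 2 and 3 gave -1.69 and -1.58. Without culture 1 the log2 fold change was -1.63 ± 0.25 (SE; adjusted p = 4.48e-09, edgeR), so the fall was also measured in the cultures with the lower fibroblast and smooth muscle markers. With only cultures 2 and 3, this p rests mainly on a spread that edgeR estimates over all genes. It cannot be compared with the p of all pairs.

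Serinc5 was lowered by a similar factor in each culture. Mock samples 1, 2 and 3 had 460, 726 and 625 CPM, and NRG1 samples 1, 2 and 3 had 192, 270 and 272 CPM. Again the groups did not overlap. The log2 fold change was -1.30 ± 0.12 (SE, n = 3 pairs; adjusted p = 1.08e-05, edgeR), and the log2 ratios of the single pairs lay between -1.43 and -1.20. Without culture 1 it was -1.31 ± 0.19 (SE; adjusted p = 1.53e-10, edgeR), a p with the same limit as that of Fa2h. Fa2h and Serinc5 had already been placed by the study among myelination genes that changed in these samples, so their fall is not independent of that choice. Without the pairing of samples by culture, the log2 fold changes were -1.81 and -1.31 but no gene passed, with adjusted p of 0.209 for Fa2h and 0.163 for Serinc5 (edgeR).

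The remaining galactolipid enzymes did not pass the test. Ugt8 encodes the ceramide galactosyltransferase that makes galactosylceramide. It was measured at 188, 172 and 135 CPM in mock samples 1, 2 and 3 and at 103, 141 and 103 CPM in the NRG1 samples. It was lower in each pair, yet the groups overlapped, since NRG1 sample 2 exceeded mock sample 3. Its log2 fold change of -0.51 ± 0.13 (SE, n = 3 pairs) had an adjusted p of 0.0134 with edgeR and so missed the threshold, and without the filter on low counts it passed (adjusted p = 0.00124, edgeR). The pair of culture 1, with a log2 ratio of -0.87, contributed most, against -0.28 and -0.38 in cultures 2 and 3. Without culture 1 the log2 fold change was -0.33 and the adjusted p 0.196 (edgeR), whereas without culture 2 it was -0.62 with an adjusted p of 0.00592 (edgeR).
Gal3st1, the sulfotransferase that turns galactosylceramide into sulfatide, had 27.9, 71.8 and 87.6 CPM in mock samples and 31.6, 77.6 and 96.3 CPM in NRG1 samples. It was thus slightly higher in each NRG1 sample than in its mock partner. The log2 fold change was 0.14 with a 95% interval from -0.11 to 0.39 (adjusted p = 0.431, edgeR), so a change as large as that of Fa2h or Serinc5 lies outside the interval.

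The genes of ceramide synthesis itself showed small differences. Cers2, the ceramide synthase that prefers very long acyl chains and is abundant in myelinating cells, had 205, 209 and 235 CPM in mock samples and 242, 291 and 298 CPM in NRG1 samples. Every NRG1 sample was above every mock sample. The log2 fold change was 0.35 ± 0.12 (SE, n = 3 pairs), or 1.28-fold, with an adjusted p of 0.0442 (edgeR), which did not pass at 0.01. In the current rat annotation Cers2 overlaps the gene Setdb1. The strand setting of the counting is not given in the sources used here, so part of the Cers2 reads cannot be told apart from those of its neighbour. Ugt8 overlaps a pseudogene, and Sptlc2 and Degs1 overlap genes of long noncoding RNA, so the same limit holds for them. Cers2, Fa2h and Serinc5 were the 3 of 10 genes whose groups did not overlap, against a background of 20.1% of all genes tested. Lower values in each of the 3 pairs were found for 4 of the 10 genes, namely Fa2h, Serinc5, Ugt8 and Sptlc1, against 30.0% of all genes.

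Sptlc1 and Sptlc2 encode the paired subunits of serine palmitoyltransferase, the first enzyme of the pathway. Sptlc1 stayed between 82.9 and 88.9 CPM in mock and between 73.3 and 86.0 CPM in NRG1 samples, and its log2 fold change was -0.09 (95% interval -0.34 to 0.16, adjusted p = 0.606, edgeR). Sptlc2 lay between 67.8 and 95 CPM in mock and between 67.1 and 96.3 CPM in NRG1 samples, with a log2 fold change of -0.11 (95% interval -0.38 to 0.15, adjusted p = 0.541, edgeR). For both subunits the groups overlapped, although for Sptlc1 only NRG1 sample 1 lay within the range of the mock samples. Degs1, the desaturase that completes ceramide by adding its double bond, had 132 to 164 CPM in mock and 142 to 193 CPM in NRG1 samples, and a log2 fold change of 0.10 (95% interval -0.16 to 0.35, adjusted p = 0.603, edgeR). None of these 3 intervals reaches a log2 fold change of 1 in either direction.

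Outside the galactolipid branch, neither enzyme that adds another head group to ceramide was altered by NRG1 beyond the spread between pairs. Sgms1, a sphingomyelin synthase of the Golgi, had a log2 fold change of -0.03 (95% interval -0.31 to 0.24, adjusted p = 0.880, edgeR), and Ugcg, the glucosylceramide synthase, one of -0.04 (95% interval -0.31 to 0.23, adjusted p = 0.843, edgeR). The single pairs of both genes pointed in different directions, with a higher NRG1 value in culture 1 and lower ones in cultures 2 and 3.

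**Figure D2:**
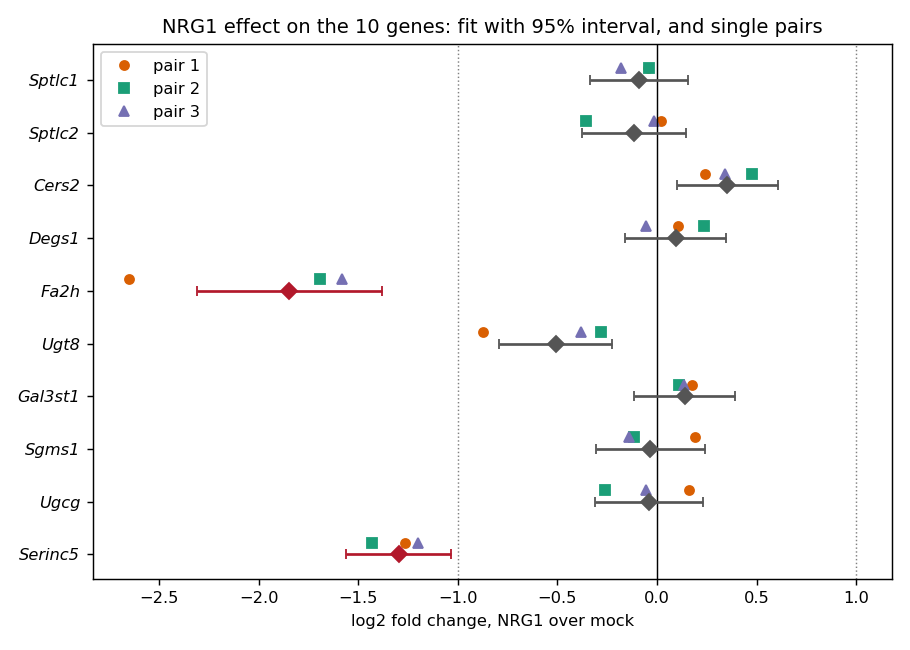
Log2 fold change of each gene, NRG1 over mock, as a diamond with its 95% interval from the fit over all pairs, and the log2 ratio of each single pair above it. Red diamonds mark Fa2h and Serinc5, which passed the test, and dotted lines mark log2 fold changes of -1 and 1. The points of Fa2h and Serinc5 lie left of -1 in all 3 pairs.

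The promoters of Fa2h and Serinc5, the genes that fell, and of Ugt8 and Gal3st1, the other genes of the galactolipid branch, are shown so that their sequences can be compared. They are RefSeq sequences of the GRCr8 assembly, from 250 bases before to 50 after the annotated start, 5′ to 3′ on the strand of the gene, whereas the reads were mapped to rn5. Capitals mark matches to GCGNGGGCG, the letters bound by EGR zinc finger factors such as Egr2, which drives myelin genes in Schwann cells.
Fa2h promoter, chr19:56273431-56273730, minus strand: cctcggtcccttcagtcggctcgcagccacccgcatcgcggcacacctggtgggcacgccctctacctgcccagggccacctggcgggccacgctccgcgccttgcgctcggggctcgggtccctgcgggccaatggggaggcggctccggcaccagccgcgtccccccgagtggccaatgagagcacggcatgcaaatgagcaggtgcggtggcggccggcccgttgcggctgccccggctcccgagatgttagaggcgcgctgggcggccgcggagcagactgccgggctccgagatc
Serinc5 promoter, chr2:25581721-25582020, plus strand: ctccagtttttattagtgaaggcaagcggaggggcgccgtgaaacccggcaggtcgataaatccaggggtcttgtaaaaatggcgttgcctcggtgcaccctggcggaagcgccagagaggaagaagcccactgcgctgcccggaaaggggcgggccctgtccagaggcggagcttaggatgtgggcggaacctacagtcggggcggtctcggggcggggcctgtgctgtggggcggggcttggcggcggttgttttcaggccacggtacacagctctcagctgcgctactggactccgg
Ugt8 promoter, chr2:217007118-217007417, minus strand: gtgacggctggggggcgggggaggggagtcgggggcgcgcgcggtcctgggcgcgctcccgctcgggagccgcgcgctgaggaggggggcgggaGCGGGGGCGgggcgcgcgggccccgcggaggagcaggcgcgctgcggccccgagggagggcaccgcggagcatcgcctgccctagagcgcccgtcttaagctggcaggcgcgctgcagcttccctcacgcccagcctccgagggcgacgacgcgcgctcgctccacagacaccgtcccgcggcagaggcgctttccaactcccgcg
Gal3st1 promoter, chr14:83094135-83094434, plus strand: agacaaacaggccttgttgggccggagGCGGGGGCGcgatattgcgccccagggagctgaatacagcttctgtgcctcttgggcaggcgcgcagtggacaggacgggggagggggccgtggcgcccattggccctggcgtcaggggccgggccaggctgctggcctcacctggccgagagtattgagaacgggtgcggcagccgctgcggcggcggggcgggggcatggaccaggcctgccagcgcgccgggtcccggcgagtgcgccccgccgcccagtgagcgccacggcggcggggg

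A promoter of this length was found for 9 of the 10 genes, the exception being Ugcg. The EGR letters were present on either strand in 3 of these 9, namely Ugt8 at position -156 and Gal3st1 at position -223 from the start, and on the reverse strand in Sptlc2 at position -43. Among all 33469 rat promoters of the same length, 4.98% held them. The promoters of Fa2h and Serinc5 held neither these letters nor any of the others searched on both strands, which were ACAAAG for SOX factors (in 18.8% of all promoters), TGACGTCA for the cAMP response element (1.83%), TGANTCA for AP-1 (7.33%) and CACGTG for the E-box (6.42%). ACAAAG was found in Sptlc1 alone, at 2 places. The 9 promoters had between 14 and 47 CpG dinucleotides, against a median of 7 over all promoters, and a GC content of 74.3% for Fa2h, 64.3% for Serinc5, 79.3% for Ugt8 and 74.7% for Gal3st1, against a median of 51.7%. The EGR letters are themselves rich in G and C and hold CpG, so 4.98% is not a share over promoters of like composition. A match says only that the letters are in this window, and no binding was measured.

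Gal3st1, Sgms1 and Ugcg, none of which passed the test between mock and NRG1, differed between the cultures. Ugcg had 125 and 140 CPM in the mock and NRG1 samples of culture 1, 42.6 and 35.5 CPM in those of culture 2, and 34.6 and 33.3 CPM in those of culture 3. On the mean of log2 values it was therefore 3.63-fold higher in culture 1 than in the others. Gal3st1 and Sgms1 went the other way. The level of Gal3st1 in culture 1 was 0.359 times that in cultures 2 and 3. Sgms1 had 30.5 and 34.8 CPM in culture 1 but between 55.7 and 64.8 CPM in the 4 samples of the other cultures, a ratio of 0.540. For each of these 3 genes the samples of culture 1 did not overlap the others, but the share of all genes with this pattern was not counted. The 3 genes are named because they passed the test between cultures, so the lack of overlap adds nothing to it.
The test of the replicate terms in the same edgeR fit gave an adjusted p of 9.98e-08 for Ugcg, 2.2e-06 for Gal3st1 and 0.000658 for Sgms1. These 3 of 10 genes passed at an adjusted p of at most 0.01, against 23.4% of all genes tested. Fa2h and Serinc5 were also lower in culture 1, at 0.458 and 0.695 times the level of the others, but with adjusted p of 0.0192 and 0.0158 (edgeR) they did not pass. With DESeq2 Serinc5 passed (adjusted p = 0.00334) and Fa2h did not (0.0334), and without the filter on low counts both passed (0.00416 and 0.00107, edgeR). Sptlc1, Sptlc2, Cers2, Degs1 and Ugt8 spanned at most 1.42-fold between the cultures, and their adjusted p lay between 0.0424 and 0.631 (edgeR).
With culture 1 left out, none of the 10 genes differed between cultures 2 and 3 in edgeR's test, with adjusted p from 0.252 to 0.953, where 2.47% of all genes passed. Without culture 2, 6 genes passed, which added Fa2h, Serinc5 and Sptlc2 (adjusted p = 0.00377, 0.00409 and 0.00318, edgeR), against 36.6% of all genes. The culture differences of Ugcg, Gal3st1 and Sgms1 thus rest on culture 1. Its summed fibroblast and smooth muscle markers were high and its summed Schwann cell markers low. Sox10, for comparison, averaged 437 CPM in culture 1 and 1080 and 1220 CPM in cultures 2 and 3. Gfap did not follow, with 91.5 CPM in culture 1 and 70.4 and 76.1 CPM in cultures 2 and 3. The part of other cell types in the levels of the 3 genes was not tested.

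**Figure D3:**
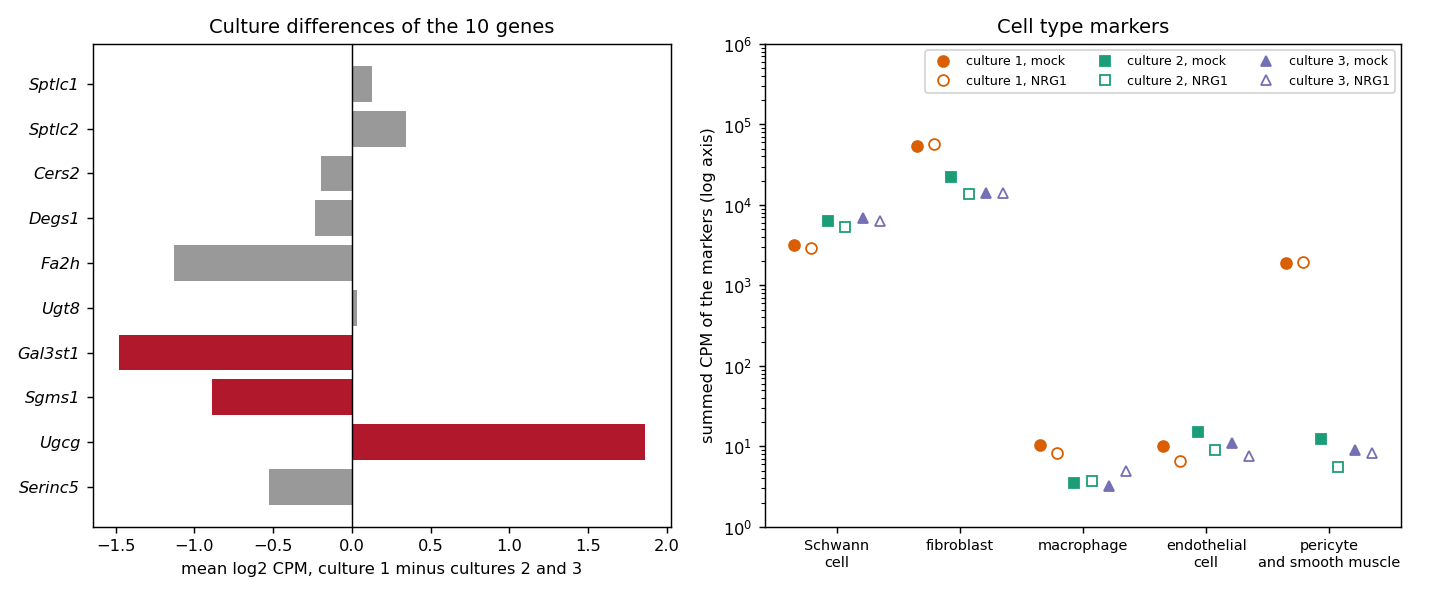
Left, mean log2 CPM of culture 1 minus that of cultures 2 and 3 for each gene, in red for Gal3st1, Sgms1 and Ugcg, which passed the test between cultures at an adjusted p of at most 0.01. Right, summed CPM of the cell type markers on a log axis, filled for mock and open for NRG1 samples, where culture 1 is high in fibroblast and in pericyte and smooth muscle markers and low in Schwann cell markers.

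The 5 genes outside the sphingolipid lists whose log2 CPM followed Fa2h most closely over the 6 samples were RGD1309534, Prkra, Add3, Gdpd1 and Wnt6, with Pearson's r from 0.990 to 0.995. The 6 points share 3 cultures and 2 conditions, so this likeness is given as a description. Add3, which encodes a membrane skeleton protein of the adducin family, had 344 to 527 CPM in NRG1 and 696 to 819 CPM in mock samples. Wnt6, a secreted Wnt ligand, had 2.94 to 5.67 CPM in mock and at most 0.581 CPM in NRG1 samples, where it lay at or near the floor. RGD1309534, Add3 and Wnt6 passed the test between mock and NRG1. Prkra and Gdpd1 did not, with log2 fold changes of -0.32 and -0.44 (adjusted p = 0.0702 and 0.0611, edgeR).

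Around the 10 genes, a list of 77 further genes of sphingolipid supply, transport, branching, breakdown and signalling was drawn up, of which 73 were in the files and 54 passed the filter on low counts. In response to NRG1, 4 of the 54 fell and 2 rose, and 48 did not pass. These 6 of 54 genes are no larger a share than the 11.8% of all genes tested that passed. Their median log2 fold change was -0.17. The genes that passed belonged to ceramide breakdown and to sphingosine 1-phosphate, and none of them to synthesis of ceramide or of its head groups. With so few calls, at a share near that of all genes, their place in the pathway is a description only.
Ceramidases release sphingosine from ceramide, and 3 of them fell. Asah1, the acid ceramidase of the lysosome, had 442, 560 and 466 CPM in mock and 279, 422 and 308 CPM in NRG1 samples, and its groups did not overlap. Its log2 fold change was -0.56 ± 0.12 (SE, n = 3 pairs; adjusted p = 0.00489, edgeR). Asah2, the neutral ceramidase, fell by 1.15 on the log2 scale (SE 0.26, adjusted p = 0.00611, edgeR), from 9.89, 3.85 and 3.39 CPM to 4.80, 1.57 and 1.49 CPM. Acer2, an alkaline ceramidase, fell by 1.06 (SE 0.25, adjusted p = 0.00723, edgeR), from 4.01, 5.48 and 9.38 CPM to 1.47, 2.92 and 4.71 CPM. Both were low, with 11 to 119 counts per sample, and their groups overlapped although each pair showed a fall. With a culture left out, the log2 fold changes stayed between -0.63 and -0.50 for Asah1, between -1.22 and -1.10 for Asah2 and between -1.11 and -0.96 for Acer2, but none of these calls held under every such omission. For Asah1 the adjusted p was 0.0348 without culture 1, 0.00293 without culture 2 and 0.0711 without culture 3 (edgeR). Asah2 and Acer2 missed the threshold without any one of the cultures, with adjusted p from 0.0133 to 0.0439 and from 0.0135 to 0.0729 (edgeR), and also with DESeq2 (0.0331 and 0.0385).

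Sphingosine 1-phosphate is a signalling lipid made from sphingosine. Sphk1, a kinase that makes it, rose 1.90-fold, from 49.4, 55.1 and 60.4 CPM in mock to 102, 102 and 109 CPM in NRG1 samples. The groups were far apart, and the log2 fold change was 0.92 ± 0.12 (SE, n = 3 pairs; adjusted p = 9.77e-05, edgeR), just under the fold threshold. Spns2, which exports sphingosine 1-phosphate from the cell, rose by a log2 fold change of 1.12 ± 0.23 (SE; adjusted p = 0.00345, edgeR), from 2.27, 4.44 and 4.33 CPM to 5.60, 11.01 and 7.88 CPM. Aldh3a2, the aldehyde dehydrogenase that clears the fatty aldehyde left when sphingosine 1-phosphate is cleaved, fell by 0.66 on the log2 scale (SE 0.12, adjusted p = 0.00177, edgeR), from 101, 107 and 118 CPM to 74.4, 67.3 and 65.2 CPM. Of these 3 genes, Sphk1 passed with each of the 3 cultures left out in turn, with adjusted p from 3.4e-05 to 0.00019 (edgeR). Aldh3a2 missed the threshold without culture 3 (adjusted p = 0.0404, edgeR). Spns2, with 17 to 122 counts per sample, lost the call without culture 2 (adjusted p = 0.0197, edgeR), without culture 3, where the adjusted p only rounds to 0.01, and with DESeq2 (0.0108). The log2 fold changes with a culture left out were 1.02 to 1.32 for Spns2 and -0.76 to -0.53 for Aldh3a2.

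In the lists of synthesis, each with 2 to 7 genes tested, no gene passed at 0.01, where 11.8% of all genes did. Serinc3, the most abundant relative of Serinc5, had a log2 fold change of -0.28 (95% interval -0.55 to -0.01, adjusted p = 0.128, edgeR). Its interval does not reach the value of Serinc5. Sptssa, a small subunit of serine palmitoyltransferase, had -0.40 (adjusted p = 0.0363, edgeR), and Cers5, another ceramide synthase, had 0.13 (adjusted p = 0.457, edgeR). Col4a3bp, which carries ceramide to the site of sphingomyelin synthesis, had 0.01 (adjusted p = 0.946, edgeR). Among ganglioside enzymes St3gal2, a sialyltransferase, had 0.19 (adjusted p = 0.261, edgeR), and among elongases of very long fatty acids Elovl1 had -0.24 (adjusted p = 0.186, edgeR). Among the 17 genes of breakdown tested, 15 had a log2 fold change below 0, against 5144 of all 9740 genes, and the median was -0.27, against -0.03. Only the 3 ceramidases of this list passed, where 5.51% of all genes fell.

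**Figure D4:**
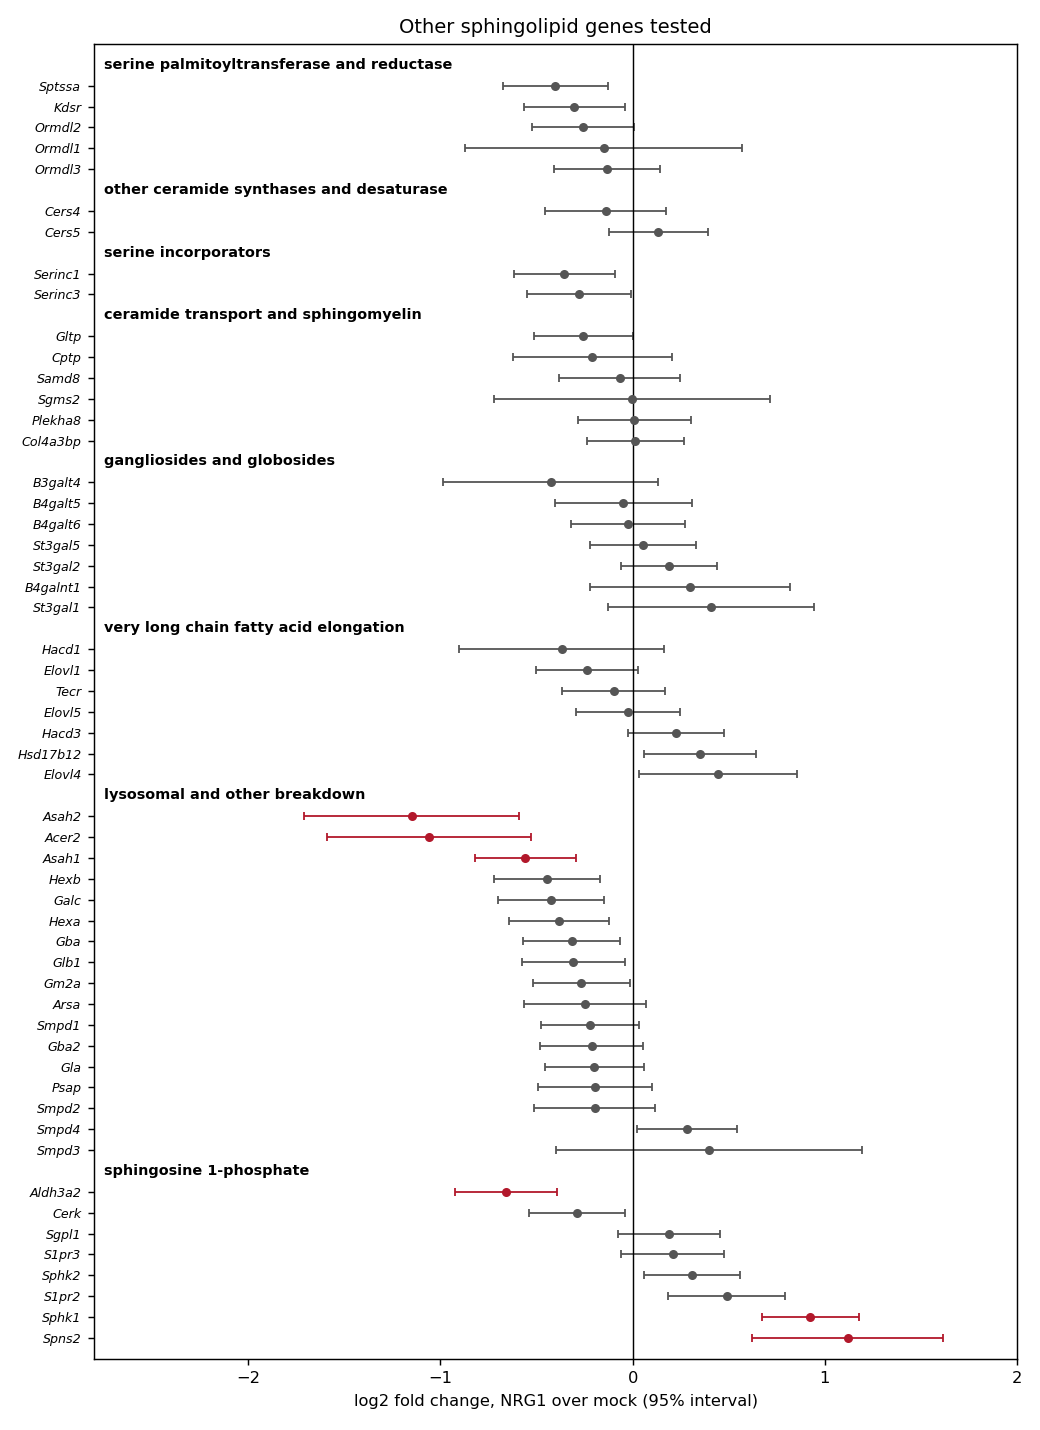
Log2 fold change, NRG1 over mock, of the 54 further sphingolipid genes tested, grouped by role, with 95% intervals. Red points passed at an adjusted p of at most 0.01. They are Asah2, Acer2, Asah1 and Aldh3a2 on the lower side and Sphk1 and Spns2 on the higher side.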

How the data were processed

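Poly(A) RNA of cultured Schwann cells was sequenced in 6 libraries, 3 from mock and 3 from NRG1 samples. The authors aligned the reads to rn5 using TopHat 2.0.10, assigned them to RefSeq genes through htseq, and deposited the raw counts of each library. Genes held 47.0% to 49.9% of the counted alignments. The htseq summary lines, which hold the rest (outside genes, in several genes or in several places), were left out. Genes were filtered with filterByExpr (minimum count 10), scaled by TMM and fitted with edgeR 4.0.16 in R 4.3.3, with culture as a blocking factor, following the paired design of the study. A 95% interval used the t quantile of the fit. The same fit tested the replicate terms for differences between cultures. Standard errors were derived from the F statistic and the fold change. CPM are per TMM-scaled library.

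The labels number 3 independent experiments, and same-numbered samples deviated together from their group means (r across genes 0.91, 0.67 and 0.81, and at most 0.51 for other combinations), so the numbers were taken as pairs. No 2 libraries agreed within sampling noise. The members and lists were chosen with earlier results of these data known. Genes named in the text are the 10 members, each further sphingolipid gene that passed, the most abundant gene of each list with fewer than 2 such genes, and the 5 genes most correlated with Fa2h. Marker genes are named as examples, chosen after their values were seen. Cers6, Hacd2, Acer3 and Sgpp1 were not analysed here, and 2 Schwann cell markers are not reported here. Intervals and the floor of 3 counts cover these libraries only. The scripts were tested on simulated data. Alternatives were RLE scaling, 2 other filters, DESeq2 1.42.0, no block, each replicate left out, an adjusted p of 0.05 and the fold threshold inside the test. With a replicate left out, the p rests mainly on a spread estimated over all genes and cannot be compared with that of all pairs.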

Additional observations from a re-analysis of the deposited data

How the results depend on the processing

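Fa2h and Serinc5 stayed down-regulated, past both thresholds, under RLE scaling, both other filters, DESeq2, the looser adjusted p and with each culture left out. These calls were lost without the replicate block and also with the fold threshold inside the test. With no replicate block 0 of the 10 genes were lower past the p threshold and 0 past both, the wider list had 0 lower and 0 higher genes, and 0 of all genes passed edgeR's test, although 1334 genes and 3 of the 10 had an unadjusted p under 0.05. With the fold threshold inside edgeR's test, 0 of the 10 genes and 0 of the wider list passed in either direction, and 220 genes, 2 of them among the 10, had an unadjusted p under 0.05. Of all 9740 genes, 13 rose and 9 fell in that test. With DESeq2 the wider list had 2 lower and 1 higher gene, and 0 of them past both thresholds, where 433 of all 9740 genes fell and 590 rose. At an adjusted p of 0.05, 1 of the 10 genes was higher, 8 of the wider list were lower, and 6 of the 10 differed between cultures. Of all 9740 genes, 1124 rose, 1136 fell and 36.3% differed between cultures at this setting. Without the low-count filter 5 of the 10 differed between cultures, and with DESeq2 4, Serinc5 included, against 27% and 21.8% of all genes tested. Leaving out each culture in turn gave 2 to 3 lower genes among the 10, 0 to 3 lower and 1 to 3 higher genes in the wider list (0 and 0 to 1 past both thresholds), and 0 to 6 of the 10 differing between cultures. Of the 9926 to 10339 genes tested in these fits, 253 to 601 fell, 408 to 590 rose and 2.47% to 36.6% differed between cultures. The log2 fold changes of 3 genes near 0 changed sign, none past the threshold. Ugcg was 0.043 with no replicate block and ranged from -0.154 to 0.061 with a culture left out, Sptlc2 from -0.179 to 0.006, and Sgms1 from -0.126 to 0.051. In these cases the cause was not tested. Of 144 values of single genes under the alternatives, 113 kept their direction and side of the threshold, 22 lost and 4 gained the call. Depth limits Fa2h most among the 10, with 15 counts in its lowest sample.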

Other observations

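Over the wider sphingolipid list, 16 of 54 genes differed between the cultures, against 23.4% of all genes tested. The lists of gangliosides and of fatty acid elongation are described because they had the highest shares, a choice made after the values were seen. The counts were 3 of 17 in breakdown, 3 of 8 in sphingosine 1-phosphate, 2 of 5 in serine palmitoyltransferase and reductase, 0 of 6 in ceramide transport and sphingomyelin, 0 of 2 in the other ceramide synthases and 0 of 2 in the serine incorporators. Genes of ganglioside synthesis differed between the cultures, although none of the 7 tested passed the test between mock and NRG1. By the test of the replicate terms in the edgeR fit, 5 of the 7 passed. The genes named here were chosen after their values were seen. B4galt5 and B4galt6, the lactosylceramide synthases that act after Ugcg, averaged 58.0 and 47.0 CPM in culture 1, with 16.4 and 22.3 CPM in culture 2 and 14.1 and 18.8 CPM in culture 3. St3gal5, which makes the first ganglioside from lactosylceramide, went the other way, with 58.3, 138 and 135 CPM in cultures 1, 2 and 3. St3gal1, another sialyltransferase, had 33.4, 1.36 and 2.97 CPM. In the elongation of very long fatty acids, 3 of 7 genes passed. Elovl1 had 181, 313 and 386 CPM and Tecr 50.4, 125 and 95.3 CPM in cultures 1, 2 and 3, whereas Hacd1 had 19.5, 3.54 and 1.55 CPM. The part of other cell types in these differences was not tested.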
